A study of Mus musculus with 54 samples.

Results

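The genes described are 9 that mark resting, or homeostatic, microglia: Tmem119, P2ry12, P2ry13, Cx3cr1, Csf1r, Sall1, Siglech, Gpr34 and Olfml3. They were chosen by symbol, and all 9 were among the 16632 genes counted. The filter on low counts left 13169 genes, and 8 of the 9 passed it. Siglech was the exception. Expression was counted in 54 libraries of primary microglia from newborn C57BL/6 mice. Mixed brain cells (2 brains per flask) grew for 7 to 10 days in 10% fetal calf serum with 1% supernatant of L929 fibroblasts, and microglia were shaken off the astrocyte layer below them. All groups share this origin in culture, so no group holds microglia taken directly from brain. The untreated group received neither agent (6 libraries, 4 experiments). The aSyn-treated group received 1 µM alpha-synuclein (aSyn) carrying the dye Atto-488 for 14 h, without co-culture (4 libraries). Donors received the same aSyn. Acceptors received a violet cell dye for 15 min and no aSyn. Co-culture of both lasted 15, 30, 60, 150 or 300 min, and flow cytometry then sorted them by dye. A label of 0 min also occurs, and its meaning is not explained. Whether untreated and aSyn-treated cells were also sorted is not stated.

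Microglia are kept in their resting state by signals from other brain cells, among them transforming growth factor beta and ligands of the receptor Csf1r. The resting state is marked by surface receptors that read these surroundings and by the transcription factor Sall1. Cx3cr1 is the receptor for the neuronal chemokine fractalkine, and Csf1r binds Csf1 and Il34, on which microglia depend for survival. P2ry12 and P2ry13 are receptors for adenosine diphosphate, and P2ry12 steers microglial processes toward damaged tissue. Gpr34 is a related lysophosphatidylserine receptor, Tmem119 a membrane protein used as a microglia marker, Siglech a sialic acid-binding lectin and Olfml3 a secreted protein. Several of these genes are known to be expressed at low levels in microglia kept in culture.

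P2ry12 and P2ry13 are neighbours in the genome, and both were lower in acceptors in every experiment, so their promoters are shown side by side. In the GENCODE M21 annotation of GRCm38, P2ry13 (ENSMUSG00000036362) lies on the minus strand at chr3:59207892-59210882 and P2ry12 (ENSMUSG00000036353) on the minus strand at chr3:59216272-59262871. They are 5389 bp apart, and the gene Med12l overlaps the whole span on the opposite strand, with an exon overlapping P2ry12. Whether the counting used strand is not stated, so reads of Med12l and P2ry12 may not be separated. The sequences are from RefSeq (GRCm38.p6), 250 bases before the start site in lower case and 50 from the start site on in capitals, for the minus-strand windows chr3:59210833-59211132 (P2ry13) and chr3:59262936-59263235 (P2ry12). The RefSeq start of P2ry12 lies upstream of the GENCODE gene.
P2ry13: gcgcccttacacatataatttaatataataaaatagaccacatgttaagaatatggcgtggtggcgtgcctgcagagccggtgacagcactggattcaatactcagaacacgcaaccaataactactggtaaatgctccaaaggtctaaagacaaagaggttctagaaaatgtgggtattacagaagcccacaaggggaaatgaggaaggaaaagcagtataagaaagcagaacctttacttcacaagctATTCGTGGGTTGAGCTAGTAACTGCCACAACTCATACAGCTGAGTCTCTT
P2ry12: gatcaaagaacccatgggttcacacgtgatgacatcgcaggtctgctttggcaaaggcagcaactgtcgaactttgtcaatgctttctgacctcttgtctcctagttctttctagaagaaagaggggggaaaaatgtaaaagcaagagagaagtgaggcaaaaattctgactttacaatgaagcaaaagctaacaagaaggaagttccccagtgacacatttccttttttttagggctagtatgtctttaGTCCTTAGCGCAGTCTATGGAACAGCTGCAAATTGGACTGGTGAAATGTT

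RefSeq promoters were matched for 6 of the 9 genes (8 promoters). Both strands were searched. The letters CTA and TAG parted by any 4 bases occurred in 3.69% of 32851 mouse promoters of this length and, of the 8 member promoters, in that of Cx3cr1. With the centre limited to A or T, as sites of the MEF2 factors have it, the shares were 0.557% and 0 of 8. The letters GAGGAAGT, a core bound by the macrophage factor PU.1, occurred in 3.2% of them and in 0 of the 8 member promoters. A match describes letters in a window and shows no binding.

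In the same annotation Tmem119 lies at chr5:113793729-113800516 and Olfml3 at chr3:103722222-103738001, both on the minus strand with no overlapping gene. Gpr34 lies on the plus strand at chrX:13632089-13640858, inside Cask on the opposite strand without shared exons. Cx3cr1 spans chr9:119901616-120069879 on the minus strand, a span that holds Gorasp1, Csrnp1 and Xirp1 on the same strand and an overlapping exon of Gm33858 on the other.

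Library totals ran from 7807389 to 15537493 counts (median 13036175.5), and a floor of 3 counts corresponds to 0.113 to 0.387 CPM (counts per 1e6 of the TMM-scaled total) over the 52 units. Experiment 4 has facility numbers apart from those of the other experiments. The ribosomal RNA precursor Rn45s took 13.4 to 22.3% of its counts and 1.42 to 13.5% of theirs. The 12 general macrophage markers all passed the filter, with summed levels of 8501 to 23810 CPM over the 52 units. Astrocyte markers summed to 12.5, 23.8, 132 and 268.2 CPM in untreated cells of experiments 1 to 4 and to 16.1, 14.3, 22.9 and 70.8 CPM in aSyn-treated cells. They ranged from 9.96 to 57 CPM in donors and from 10.5 to 80.6 CPM in acceptors. Oligodendrocyte-lineage markers, Mbp among them, summed to 118 to 589 CPM in untreated, 80.5 to 248.3 CPM in aSyn-treated, 65.1 to 176 CPM in donor and 75.9 to 275 CPM in acceptor cells. The astrocyte sums were thus highest in untreated cells of experiments 3 and 4. These libraries count 3′ tags, and levels are compared between groups and never between genes.

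The 2 receptors of growth factor and chemokine, Csf1r and Cx3cr1, kept clear expression in all 52 units. Csf1r ran from 559.3 to 2434 CPM (median 1517) and Cx3cr1 from 18.5 to 750 CPM (median 209). Of the purinergic receptors, P2ry12 ran from 1.48 to 12.3 CPM (median 5.65) and P2ry13 from 0 to 32.5 CPM (median 8.88). Gpr34 ran from 0 to 30.7 CPM (median 6.93). The regulator Sall1 ran from 1.15 to 9.2 CPM (median 5.21). Tmem119 ran from 0.925 to 13.1 CPM (median 4.71) and Olfml3 from 5.15 to 33.3 CPM (median 17.3). Siglech was at the floor of detection: 33 counts in all, none in 39 of the 54 libraries and at most 7 in any library. It is left out of the comparisons below. Only the fit without the filter on low counts tested it, and it was not called there in aSyn-treated cells or acceptors against untreated cells.

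**Figure D1:**
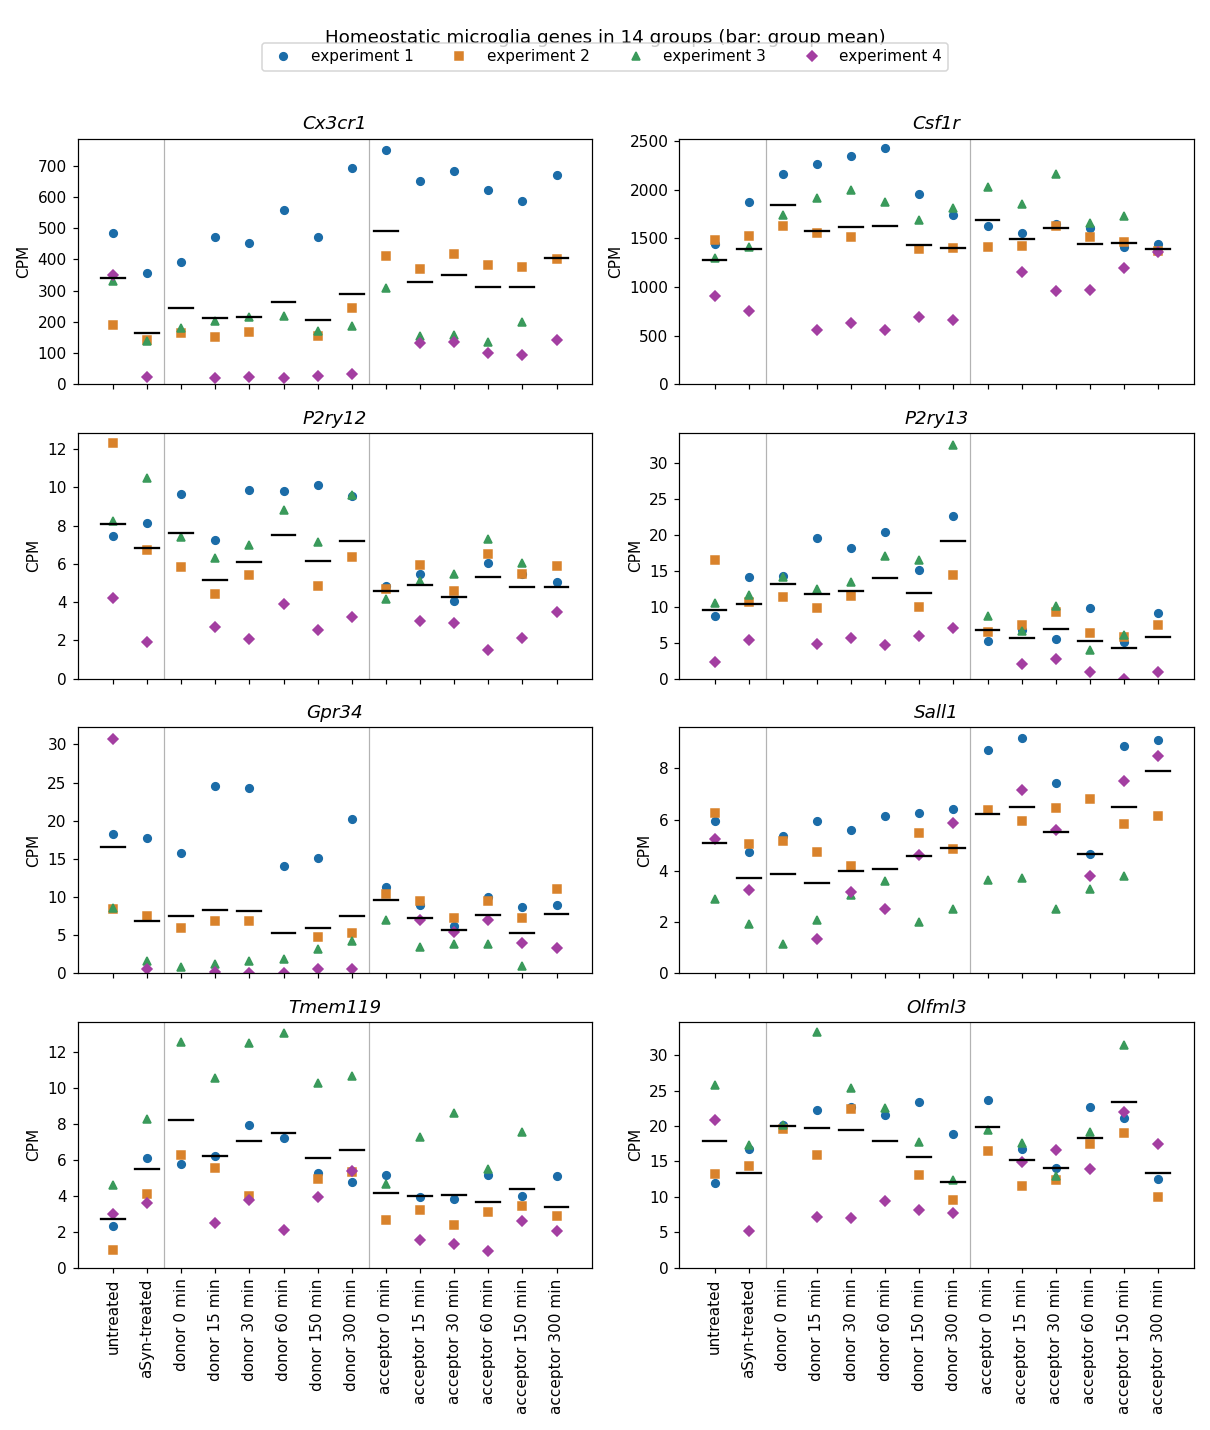
CPM (y axis, linear, from 0) of 8 homeostatic genes in the 14 groups (x axis). Points are experiments, with same-numbered untreated libraries summed, and bars are group means. Experiment 4 gives low points for Csf1r in donors (559 to 692 CPM) and for Cx3cr1 in donors (18.5 to 33.4 CPM), and experiment 3 gives the highest Tmem119 (13.1 CPM).

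The spread between experiments exceeded that between groups for all 8 genes. The experiment accounted for 73.4% of the variance of log2 CPM of Csf1r and the group for 6.59%. For Cx3cr1 these shares were 68.9% and 17.9%, and for P2ry12 65.8% and 16.9%. The largest group share among the 8 was that of P2ry13 (37.1%, against 46.4% for the experiment), and the smallest experiment share that of Olfml3 (33.9%, against 24.5% for the group). The medians over all genes tested were 33.9% for the experiment and 25% for the group. The shares make no allowance for the number of levels. With 14 groups and 4 experiments, the group share would be the larger by chance alone, so a group share is not by itself a group effect. The labelled passage of the cells was 3, 1, 2 and 2 in experiments 1 to 4, so differences between experiments and between passages cannot be fully told apart. Same-numbered libraries deviated together, and each comparison is given without and with the experiment number as a block in the fit.

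**Figure D2:**
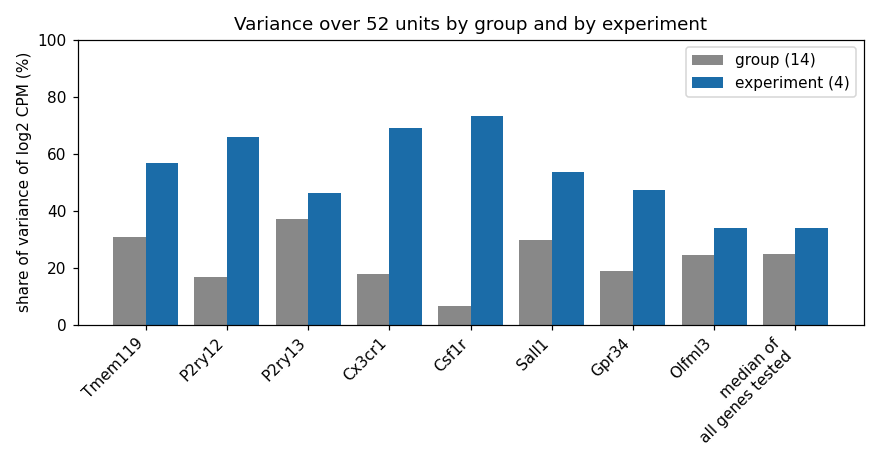
Share of the variance of log2 CPM (y axis, %) over 52 units accounted for by the 14 groups (grey) and by the 4 experiments (blue). The blue bar is the taller one for each of the 8 genes, from 33.9% for Olfml3 to 73.4% for Csf1r.

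The order of the 14 group means differed from gene to gene. Tmem119 was lowest in untreated cells (2.73 ± 1.51 CPM, SD, n = 4) and highest in donors at 0 min (8.23 ± 3.83, n = 3). Gpr34 was highest in untreated cells (16.5 ± 10.5 CPM, n = 4) and lowest in acceptors at 150 min (5.22 ± 3.45, n = 4). Cx3cr1 was lowest in aSyn-treated cells (165 ± 138 CPM, n = 4) and highest in acceptors at 0 min (489.6 ± 230.8, n = 3). Sall1 was lowest in donors at 15 min (3.52 ± 2.17 CPM, n = 4) and highest in acceptors at 300 min (7.9 ± 1.55, n = 3). P2ry13 was lowest in acceptors at 150 min (4.23 ± 2.85 CPM, n = 4) and highest in donors at 300 min (19.1 ± 10.9, n = 4). P2ry12 was highest in untreated cells (8.07 ± 3.34 CPM, n = 4) and lowest in acceptors at 30 min (4.25 ± 1.07, n = 4). Csf1r moved least, from 1280 ± 261.6 CPM in untreated cells to 1843 ± 277.6 in donors at 0 min, and Olfml3 ran from 12.1 ± 4.83 in donors at 300 min to 23.4 ± 5.5 in acceptors at 150 min. Groups of 3 units lack an experiment (experiment 4 at 0 min, experiment 2 in donors at 60 min, experiment 3 in acceptors at 300 min), and their means are not balanced over experiments. Differences between neighbours in these orders were within the SDs.

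The aSyn-treated and untreated cells differ by aSyn with its dye, and neither group is labelled as co-cultured. Without the block, 0 of the 8 genes passed (edgeR quasi-likelihood test, Benjamini-Hochberg adjusted p under 0.05), where 2.5% of all genes tested did. None of the 8 had an unadjusted p under 0.05, and DESeq2 called 0. With the block, Tmem119 was higher and Cx3cr1 and Gpr34 were lower: 3 of 8 genes, against 19.2% of all genes tested. Most units of that fit are co-culture libraries, and all 52 share its estimate of the spread. Its SE and p therefore do not measure how the aSyn difference itself varied over the 4 experiments. With the times summed to 1 unit per experiment, 0 of 8 passed without the block (1.6% of all genes) and Tmem119 alone with it (16.8%). Summing left the counts of the aSyn-treated and untreated units as they were. The median log2 fold change of the 8 was -0.42 with the block, beside -0.05 for all genes.

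Tmem119, the membrane marker, stood at 2.32, 1, 4.63 and 2.98 CPM in untreated cells of experiments 1 to 4 and at 6.12, 4.12, 8.27 and 3.58 CPM in aSyn-treated cells. It was higher in aSyn-treated cells in each of the 4 experiments, although the groups overlap across experiments. Its log2 fold change was 1.03 (SE 0.57, adjusted p 0.356) without the block and 0.95 (SE 0.30, adjusted p 0.0217) with it. The counts behind these values are low, 23 to 79 per untreated unit and 41 to 104 per aSyn-treated unit. The 2 untreated libraries of experiment 2 differed (0.296 and 1.58 CPM). Without experiment 4 the blocked value was 1.38 (SE 0.26, adjusted p 0.000464), and without experiment 1, 2 or 3 it was not called (adjusted p 0.109, 0.167 and 0.102).

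Cx3cr1, the fractalkine receptor, stood at 485, 191, 330 and 349 CPM in untreated cells and at 355, 141, 140 and 22.9 CPM in aSyn-treated cells. It was lower in aSyn-treated cells in all 4 experiments, by a log2 ratio of -0.45, -0.44, -1.22 and -3.90, so the size of the difference varied widely. The log2 fold change was -1.04 (SE 0.90, adjusted p 0.592) without the block and -1.90 (SE 0.47, adjusted p 0.00331) with it. The blocked value shrank to -0.77 (SE 0.29, adjusted p 0.0754) without experiment 4 and was called without any other experiment (adjusted p 0.0112 to 0.0156).

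Gpr34 stood at 18.3, 8.46, 8.48 and 30.7 CPM in untreated cells and at 17.7, 7.46, 1.59 and 0.524 CPM in aSyn-treated cells. Experiments 1 and 2 hardly differed between groups (log2 ratios of -0.04 and -0.18), while experiments 3 and 4 gave -2.40 and -5.83. In experiment 4 the aSyn-treated library held 6 counts, and the 2 untreated libraries, at 28 and 32.9 CPM, held 814 together. The log2 fold change was -1.27 (SE 1.09, adjusted p 0.592) without the block and -2.26 (SE 0.77, adjusted p 0.0343) with it. Without experiment 4 the blocked value was -0.76 (SE 0.51, adjusted p 0.379), and the call was also lost without experiment 2 (adjusted p 0.0748) or 3 (adjusted p 0.141). The experiments with the largest falls of Cx3cr1 and Gpr34, 3 and 4, are those with the highest astrocyte marker sums in untreated cells. With the block 6 of 12 astrocyte and 4 of 8 oligodendrocyte-lineage markers were lower in aSyn-treated cells (19.2% of all genes called in either direction). Without the block 0 and 0 of them were (2.5%), and with the times summed and the block 4 and 2 (16.8%). The part of these markers in these results was not tested. In bulk RNA, fewer cells of a type and less RNA per cell cannot be told apart.

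The other 5 genes did not pass with or without the block. Sall1, the regulator of microglial identity, stood at 5.95, 6.24, 2.91 and 5.24 CPM in untreated and at 4.72, 5.05, 1.91 and 3.23 CPM in aSyn-treated cells, lower in each experiment, with a blocked log2 fold change of -0.48 (SE 0.26, adjusted p 0.193). P2ry12 (-0.36, SE 0.23) and P2ry13 (0.26, SE 0.34) had log2 ratios of both signs among experiments. Csf1r (0.06, SE 0.21) and Olfml3 (-0.51, SE 0.30) did as well.

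**Figure D3:**
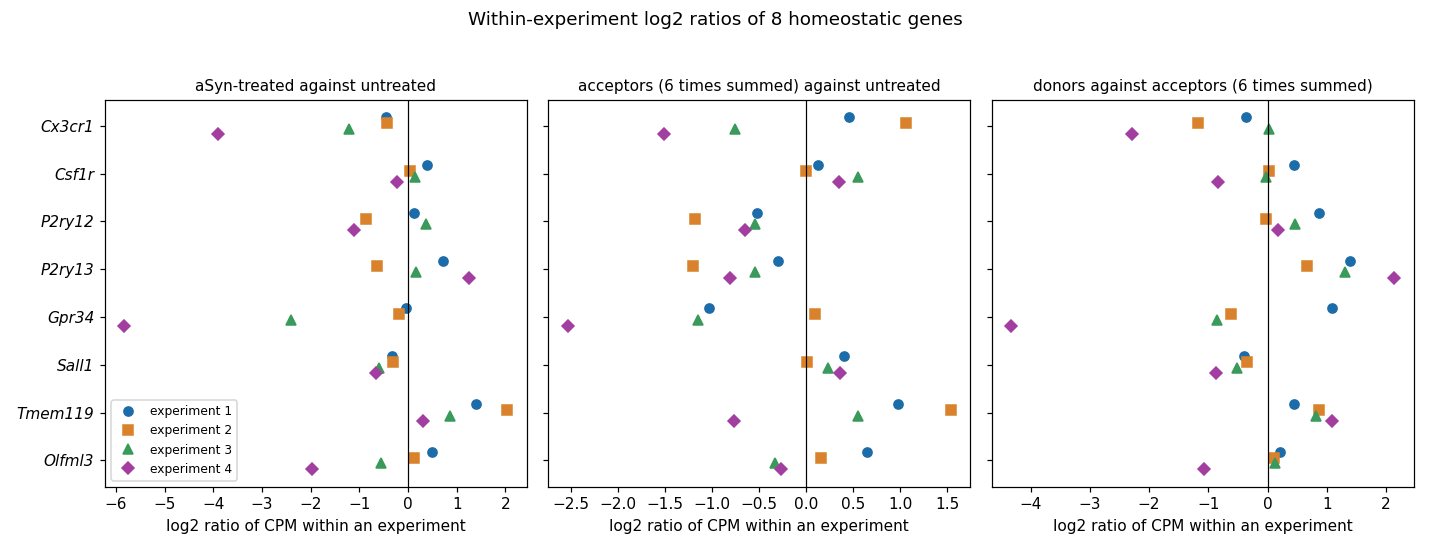
Log2 ratio of CPM within each experiment (x axis, linear, own scale in each panel) for 8 genes in 3 comparisons, with the co-culture times of an experiment summed. In the left panel Tmem119 lies above 0 and Cx3cr1, Gpr34 and Sall1 below 0 in 4 of 4 experiments. In the right panel P2ry13 and Tmem119 lie above 0 and Sall1 below 0 in 4 of 4.

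Acceptors had received no aSyn themselves. From 15 min on they had shared a dish with donors, and whether those labelled 0 min had is not stated. Against untreated cells they also differ by the violet dye. The mean of the 6 times was used. Without the block 0 of 8 genes passed, against 0.813% of all genes tested. P2ry12 alone had an unadjusted p under 0.05, and DESeq2 called 0. With the block, P2ry12, P2ry13 and Gpr34 were lower, 3 of 8 genes, against 10.9% of all genes in either direction and 7.28% lower. With times summed per experiment, 0 of 8 passed without or with the block (0% and 0.58% of all genes). With means over the 5 times after 0 min, 0 of 8 passed without the block (0.767% of all genes), and P2ry12, P2ry13 and Gpr34 passed with it (10.7%).

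P2ry12 stood at 7.47, 12.3, 8.23 and 4.22 CPM in untreated cells, and in 22 acceptor units from 1.48 to 7.3 CPM (median 5.07). Medians of the acceptors in experiments 1 to 4 were 5.24, 5.67, 5.48 and 2.92 CPM, each below the untreated value of its experiment. The fitted log2 fold change was -0.76 (SE 0.33, adjusted p 0.323) without the block and -0.81 (SE 0.17, adjusted p 0.00134) with it. The blocked call was lost without experiment 2, in which untreated P2ry12 was highest (-0.62, adjusted p 0.0597).

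P2ry13, its neighbour, stood at 8.68, 16.5, 10.5 and 2.34 CPM in untreated cells and from 0 to 10.1 CPM (median 6.26) in acceptors. The acceptor medians by experiment, 6.15, 6.94, 6.6 and 0.957 CPM, again lay below the untreated values. The blocked log2 fold change was -0.78 (SE 0.25, adjusted p 0.0397). It was not called without experiment 1 (adjusted p 0.0868), 2 (-0.53, adjusted p 0.336) or 3 (adjusted p 0.127), and was called without experiment 4 (-0.80, adjusted p 0.0187).

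Gpr34 ran from 0.996 to 11.3 CPM (median 7.14) in acceptors, with medians of 8.95, 9.45, 3.81 and 5.34 CPM. It was lower than in untreated cells in 3 of 4 experiments and slightly higher in experiment 2 (log2 ratio 0.09 with times summed). The blocked log2 fold change was -1.73 (SE 0.51, adjusted p 0.0239), and -0.76 (SE 0.38, adjusted p 0.239) without experiment 4. Nor was it called without experiment 1 (adjusted p 0.0589) or 3 (adjusted p 0.0897). Beside these falls, 9 of 12 astrocyte and 6 of 8 oligodendrocyte-lineage markers were lower in acceptors with the block (7.28% of all genes lower). Without the block 1 and 2 of them were lower (0.813% of all genes called in either direction). With the times summed and the block it was again 1 and 2 (0.58%). The part of these markers was not tested.

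Tmem119 differed by a blocked log2 fold change of 0.41 (SE 0.24, adjusted p 0.287) in acceptors. It was 0.98, 1.54 and 0.55 higher on the log2 scale in experiments 1 to 3, and experiment 4 gave -0.77. Without experiment 4 Tmem119 passed (0.97, SE 0.22, adjusted p 0.00424). Sall1 and Csf1r lay higher in acceptors in experiments 1, 3 and 4 by at most 0.40 and 0.55 on the log2 scale. In experiment 2 they hardly differed (log2 ratios of 0.01 and 0). Neither passed (blocked adjusted p 0.52 and 0.419).

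Donors and acceptors differ by the aSyn and the violet dye given beforehand, and from 15 min on they had shared a dish. Without the block, P2ry13 and Tmem119 were higher and Sall1 lower in donors, 3 of 8 genes, against 25.6% of all genes tested. With the block, P2ry12 was also higher and Cx3cr1 also lower, 5 of 8 against 44.3% of all genes. With so many of all genes called, these counts were not read as particular to the 8 genes. Libraries of an experiment at different times are not shown to be separate cultures. With the times summed, 0 of 8 genes passed without the block (0.101% of all genes) and 1 of 8, P2ry13, with it (2.62%). Means over the 5 times after 0 min gave calls for P2ry13, Tmem119 and Sall1 without the block (22.3% of all genes) and for P2ry12 and Cx3cr1 besides with it (41.4%).

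P2ry13 ran from 4.62 to 32.5 CPM (median 13.7) in 22 donor units and from 0 to 10.1 CPM (median 6.26) in 22 acceptor units. In each of the 21 pairs of libraries of the same time and experiment the donor was higher. Summed over times, donors and acceptors stood at 18.5 and 7.03 CPM in experiment 1, 11.4 and 7.19 in experiment 2, 17.2 and 7 in experiment 3 and 5.76 and 1.31 in experiment 4. The log2 fold change was 1.24 (SE 0.29, adjusted p 0.00137) without the block, 1.30 (SE 0.15, adjusted p 7.07e-09) with it and 1.37 (adjusted p 0.0207) in the blocked fit of summed times. Of the 8 genes it was the one called in donors against acceptors in that last fit.

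Tmem119 ran from 2.12 to 13.1 CPM (median 5.67) in donors and from 0.925 to 8.61 CPM (median 3.65) in acceptors. The groups overlap, but the donor was higher in 20 of 21 pairs, the exception being experiment 1 at 300 min (4.78 against 5.13 CPM). The log2 fold change was 0.81 (SE 0.24, adjusted p 0.011), or 0.75 (SE 0.13, adjusted p 7.11e-06) with the block. It was not called without the block when experiment 2 was left out (0.79, adjusted p 0.0685), nor with the times summed and the block (0.78, adjusted p 0.146).

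Sall1 ran from 1.15 to 6.4 CPM (median 4.66) in donors and from 2.51 to 9.2 CPM (median 6.26) in acceptors. The donor was lower in 18 of 21 pairs, and the other 3 were experiment 1 at 60 min and experiment 3 at 30 and 60 min. Its fitted log2 fold change was -0.56 (SE 0.19, adjusted p 0.0236), or -0.54 (SE 0.11, adjusted p 0.000107) with the block. Without the block the call was lost when experiment 2 (adjusted p 0.0768) or experiment 4 (-0.45, adjusted p 0.169) was left out. With the block it held without each experiment in turn, from -0.40 to -0.62. With times summed and the block it was -0.53 (adjusted p 0.0806).

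Cx3cr1 ran from 18.5 to 691 CPM (median 184) in donors and from 92.8 to 750 CPM (median 372) in acceptors. The donor was lower in 17 of 21 pairs. Its fitted log2 fold change was -0.61 (SE 0.38, adjusted p 0.251) without the block and -0.87 (SE 0.20, adjusted p 0.000418) with it, and -0.51 (SE 0.12, adjusted p 0.00157) with the block and without experiment 4. Summed over times, the log2 ratio was -0.37, -1.17, 0.03 and -2.28 in experiments 1 to 4, so experiment 3 showed none of the difference and experiment 4 the most. P2ry12 was 0.41 higher in donors on the log2 scale with the block (SE 0.10, adjusted p 0.00137), and 0.23 (adjusted p 0.126) when experiment 1 was left out.

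Gpr34, Csf1r and Olfml3 had no difference that passed in these fits of all 4 experiments (log2 fold changes of -0.56, -0.06 and -0.08 with the block, and 0.00, 0.06 and 0.01 without it). Their experiments disagreed. Gpr34 was higher in donors in 6 of 6 pairs of experiment 1 and in 0 of 5 pairs of experiments 2 and 4. In donors of experiment 4 it had at most 7 counts in any library. Csf1r was higher in donors in 6 of 6 pairs of experiment 1 and in 0 of 5 pairs of experiment 4. Without experiment 4 the log2 fold change of Csf1r with the block was 0.20 (adjusted p 0.00606) and that of Olfml3 0.22 (adjusted p 0.0491), and without experiment 1 Csf1r had -0.25 (adjusted p 0.0372) and Gpr34 -1.41 (adjusted p 0.0078). The direction for Csf1r thus depended on which experiment was left out.

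**Figure D4:**
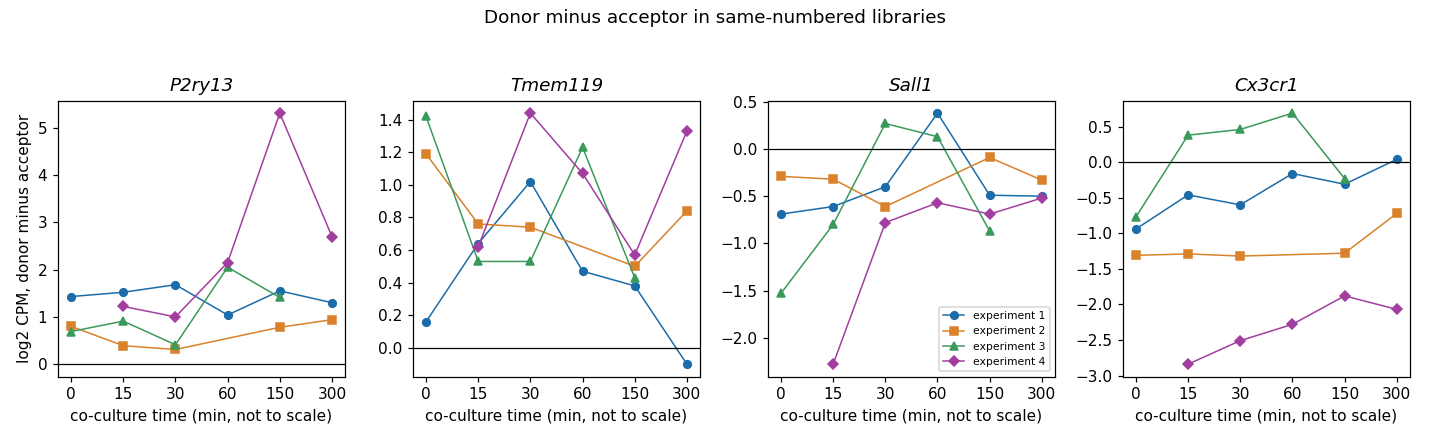
Donor minus acceptor log2 CPM (y axis, with a prior count of 2) in libraries of the same time and experiment, by co-culture time (x axis, min, evenly spaced). All 21 points of P2ry13 lie above 0, 20 of 21 of Tmem119 lie above 0, 18 of 21 of Sall1 lie below 0, and the points of Cx3cr1 separate by experiment.

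Between donors after co-culture and aSyn-treated cells without it, 0 of 8 genes passed without or with the block (0.00759% and 0.0152% of all genes), none had an unadjusted p under 0.05, and DESeq2 called 0. Tmem119, Cx3cr1, P2ry13 and Olfml3 lay above aSyn-treated cells in 4 of 4 experiments with times summed, but in some hardly so. Their smallest log2 ratios were 0.01, 0.11, 0.08 and 0.14, and Tmem119 had 0.02 and 0.01 in experiments 1 and 4. The blocked log2 fold changes were 0.21 (SE 0.23), 0.42 (SE 0.35), 0.26 (SE 0.27) and 0.33 (SE 0.24). The difference of the donor-acceptor and the aSyn-untreated differences passed for 0 of 8 genes (0% of all genes without the block, 1.34% with it), and 4 of the 8 had an unadjusted p under 0.05 with the block. It was 1.04 for P2ry13 (SE 0.38, adjusted p 0.172) and 0.77 for P2ry12 (SE 0.25, adjusted p 0.118), both log2 and blocked. DESeq2 called 0 here as well.

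Across the 6 times no gene of the 8 changed by the F test in donors (0.0607% of all genes called) or in acceptors (0.00759%), nor with the block (0.577% and 0.137%). No unadjusted p was under 0.05 by edgeR, and 1 was by DESeq2, in acceptors, with 0 called. P2ry13 in donors stood at 13.2 ± 1.63 CPM at 0 min, 11.7 ± 6.16 at 15, 12.2 ± 5.15 at 30, 14 ± 8.3 at 60, 11.9 ± 4.88 at 150 and 19.1 ± 10.9 at 300 min (SD, n = 3, 4, 4, 3, 4 and 4). The last mean is the highest and has the widest spread. Tmem119 in donors lay between 6.1 ± 2.83 (150 min, n = 4) and 8.23 ± 3.83 CPM (0 min, n = 3), and in acceptors between 3.37 ± 1.59 (300 min, n = 3) and 4.41 ± 2.18 (150 min, n = 4). P2ry12 in acceptors lay between 4.25 ± 1.07 (30 min) and 5.32 ± 2.61 (60 min, n = 4 each), with no order in time.

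At single times without the block, 0 of 144 tests of the 8 genes passed in 18 comparisons (0.162% of all gene tests; 2 had an unadjusted p under 0.05, and DESeq2 called 0). With the block 9 passed (3.02% of all gene tests). In acceptors against untreated cells P2ry12 was lower at 0 min (-1.10, SE 0.26, adjusted p 0.0312, 0.995% of all genes called), at 30 min (-0.91, SE 0.24, adjusted p 0.0231, 3.6%) and at 150 min (-0.81, SE 0.23, adjusted p 0.036, 4.78%). P2ry13 was lower at 150 min (-1.26, SE 0.36, adjusted p 0.0332). In donors against acceptors P2ry13 was higher at 60, 150 and 300 min (1.51, 1.70 and 1.74), where 6.7%, 5.19% and 1.38% of all genes were called. Sall1 was lower at 15 min (-0.94, SE 0.26, adjusted p 0.0185, 9.57%) and Tmem119 higher at 30 min (0.90, SE 0.29, adjusted p 0.0399, 10.8%). The comparisons at different times against untreated cells share the untreated units. Leaving out experiment 4 raised the blocked count to 16, and leaving out experiment 1, 2 or 3 lowered it to 1, 3 and 1.

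Other genes of resting microglia formed a list of 30, of which 25 were tested. In aSyn-treated cells 1 was higher and 0 lower without the block (2.5% of all genes called), and 3 were higher and 8 lower with it (19.2% of all genes). Kctd12, a subunit of GABA-B receptors, had 113 ± 17.7 CPM in untreated and 195 ± 26.5 CPM in aSyn-treated cells (mean ± SD over 4 units) and rose by 0.80 on the log2 scale (SE 0.21, adjusted p 0.0273). With the block Sall3, a relative of Sall1, fell from 16.6 ± 9.66 to 7.52 ± 2.88 CPM (log2 -1.04, adjusted p 0.000433). Mef2c, a transcription factor of the MEF2 family, fell from 301 ± 127 to 140 ± 55.5 CPM (log2 -1.19, adjusted p 0.00107). Slco2b1, an organic anion transporter, fell from 76.5 ± 41.5 to 12.8 ± 17.6 CPM (log2 -3.47, adjusted p 0.00284). Tgfbr1, a receptor of transforming growth factor beta, rose by 0.69 on the log2 scale (adjusted p 0.0137).

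In donors against acceptors 3 genes of this list were higher and 5 lower without the block (25.6% of all genes called), and 5 and 10 with it (44.3%). Kctd12 (1.00, SE 0.09, adjusted p 7.27e-11), Mertk, a receptor for the uptake of dying cells (0.52, adjusted p 0.000324) and Vsir (0.57, adjusted p 0.00078) were higher without the block. Sall3 (-0.85, adjusted p 0.00197) was lower. Summing the times of an experiment, with the block, left 1 gene of the list higher and 1 lower (2.62% of all genes called). In acceptors against untreated cells 0 passed without the block (0.813% of all genes) and, with it, 2 were higher and 4 lower (10.9%), among them Bin1 (-0.34, adjusted p 0.00194), Sparc (-1.54, adjusted p 0.00231) and Mef2c (-0.61, adjusted p 0.0298). With the times summed and the block, 0 were higher and 1 lower in acceptors (0.58% of all genes called). Sparc is also made by astrocytes.

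Ligands, partners and regulators of the 9 genes formed a list of 26, of which 24 were tested. In aSyn-treated cells Tgfbr2, the second receptor of transforming growth factor beta, stood at 137 ± 29.7 CPM in untreated and 72.6 ± 17.8 CPM in aSyn-treated cells, a difference that passed (log2 -0.91, SE 0.21, adjusted p 0.00899). It was the 1 gene of the list called without the block (2.5% of all genes). With the block 2 were higher and 3 lower, a share near the 19.2% of all genes. Csf1, a ligand of Csf1r, stood at 5.83 ± 4.64 and 12.6 ± 9.78 CPM (log2 1.04, SE 0.25, adjusted p 0.00313). Bhlhe40, a transcriptional repressor, rose from 6.86 ± 2.3 to 15.9 ± 4.37 CPM (log2 1.27, adjusted p 0.00266). Runx1, a transcription factor of blood and microglial lineages, fell by 0.61 on the log2 scale (adjusted p 0.00191), and Gnai2, a G protein subunit used by the purinergic receptors and Cx3cr1, fell by 0.30 (adjusted p 0.00297).

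In donors against acceptors 3 partners were higher and 4 lower without the block, and 4 and 7 with it, shares near the 25.6% and 44.3% of all genes. Csf1 was higher (1.17, SE 0.30, adjusted p 0.00291), while its receptor Csf1r did not pass. Bhlhe40 was higher (0.91, SE 0.17, adjusted p 0.000112), and Tgfbr2 (-0.25, adjusted p 0.0309), Mef2a (-0.33, adjusted p 0.00876) and Gnai2 (-0.23, adjusted p 3.17e-05) were lower. These are means over the times. Bhlhe40 stood at 20.7 CPM in donors and 4.51 CPM in acceptors at 0 min, and at 6.36 and 6.51 CPM at 300 min. For Csf1 these means were 18 and 4.56 CPM at 0 min and 8.71 and 7.58 CPM at 300 min. Summing the times of an experiment, with the block, left 1 partner higher and 0 lower (2.62% of all genes called). Tgfbr2, Mef2a and Gnai2 thus did not pass there. In acceptors against untreated cells 0 passed without the block, and with it (10.9% of all genes called) Tgfbr2 (-0.56, adjusted p 6.91e-05) and Runx1 (-0.41, adjusted p 0.00838) were lower. With the times summed and the block, 0 partners were higher and 1 lower in this comparison (0.58% of all genes called). Of 6 genes of the P2ry12-like receptor family 4 were tested, and the one that is not among the 9, P2ry14, was higher in donors than acceptors with the block (0.96, SE 0.19, adjusted p 9.05e-05). P2ry14 did not pass without the block, nor with the times summed and the block. In each of those fits 1 gene of the family was called, P2ry13.

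Likeness was measured as Pearson's r over the 14 group means of log2 CPM, after the mean of each experiment had been removed. The groups share libraries of 4 experiments, and r describes them only. Tmem119 was most like Prdx1 (0.972) and Slc7a11 (0.971), genes of the defence against oxidants, and Bcl2a1a (0.965), a relative of Bcl2. P2ry13 was most like Ttc7 (0.959), Ahrr (0.956), the repressor of the aryl hydrocarbon receptor, and Kcnab2 (0.955). Cx3cr1 was most like 2610507B11Rik (0.979), Prox1 (0.976) and Mtmr11 (0.974), and Sall1 like Gnb5 (0.941), Cbx1 (0.921) and Psip1 (0.919). P2ry12 was most like Nectin4 (0.907), Ranbp2 (0.899) and Mat2a (0.899). Without experiment 4 these 15 values of r lay between 0.766 and 0.937. Gpr34 was most like Nrp1 (0.96), Ncaph (0.958) and Stx7 (0.949), with r of 0.566 to 0.706 without experiment 4. Csf1r was most like Pnpla2 (0.89), Xpa (0.869) and Slc25a51 (0.865), with 0.52 to 0.667 without it. Olfml3 was most like Zfp746 (0.871), Spin1 (0.83) and Slc25a17 (0.82), with 0.552 to 0.727 without it.

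Among the 8 genes themselves, the highest r was between Cx3cr1 and Sall1 (0.851, and 0.888 without experiment 4). P2ry12 and P2ry13 had 0.653. Tmem119 ran against Gpr34 (-0.884) and Cx3cr1 (-0.844), less so without experiment 4 (-0.598 and -0.505).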

How the data were processed

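RNA of primary mouse microglia was sequenced with QuantSeq 3′ FWD as 50 bp single reads. The authors deposited unnormalized counts for each gene symbol in 54 libraries. The submitters' processing notes name STAR, Partek, DESeq2 and mm10, with no roles. Use of strand is not given in the sources used here. The authors also deposited a normalized signal, used only for a check: it equalled count over size factor for 100% of the member values, within 0.1.

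Same-numbered untreated libraries (2 pairs) differed by 12.1 and 10.3 in chi-square per degree of freedom, other pairs by 24.2 to 288. They were summed, leaving 52 units. Where nothing says that samples came from separate cultures, p-values measure only the spread between samples. Counts were tested with edgeR 4.0.16 (TMM, filterByExpr with minimum count 10, group-means design over 14 groups, quasi-likelihood F test, Benjamini-Hochberg over 13169 genes, threshold 0.05). Standard errors come from fold change and F. CPM are of TMM-scaled totals. Depth was 7807389 to 15537493 counts. Floors cover counting error only.

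Replicate numbers in the titles are shared across groups and were read as experiments. The 313 same-numbered pairs had deviations from group means correlated at 0.154 or more (mean 0.445), so the blocked fit is given beside the main one. The biological coefficient of variation was 38.1% without and 21% with the block. The block removes a constant offset of each experiment and does not model how an effect varied between experiments. DESeq2 1.42.0 and other alternatives are given in the closing section. On simulated data, 65% of 2-fold and 99% of 4-fold changes were recovered in aSyn-treated against untreated cells (12986 genes), and 97% and 100% in donors against acceptors (12993 genes).

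The members and lists were chosen with earlier results of these data known. All 9 members are named. From the 2 lists, genes called in the aSyn or a mean comparison without or with the block are named, up to the 6 with the smallest p. Some results under this rule are not reported here. Likeness names, for each member called in some fit, the 3 genes of highest r with a mean of at least 5 CPM. Marker lists of other cells (border or blood macrophage, neuron, endothelial, mural and fibroblast, neutrophil, lymphocyte) were counted whole.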

Additional observations from a re-analysis of the deposited data

Results flagged for a closer look

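In groups of 4 units, a unit was flagged when its gap to the nearest other unit, divided by the range of the group, passed Dixon's 95% critical value. Of 82 gene-by-group sets 6 were flagged, and chance flags about 1 in 20. Tmem119 in donors at 300 min was 10.7 CPM in experiment 3, with 4.78 to 5.41 CPM in the others (ratio 0.894). P2ry12 in acceptors at 150 min was 2.13 CPM in experiment 4, with 5.45 to 6.04 CPM in the others (0.85). P2ry13 in experiment 4 was 1.98 CPM in acceptors at 15 min, below 6.6 to 7.48 CPM (0.84), and had 0 counts at 150 min, below 5.08 to 6.11 CPM (0.832). Olfml3 in donors at 30 min was 7.05 CPM in experiment 4, below 22.4 to 25.3 CPM (0.84). Siglech in donors at 150 min was 0.481 CPM in experiment 3, with at most 0.073 CPM in the others (0.848), a difference of few counts.

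Sall1 was lower than untreated in aSyn-treated cells in 4 of 4 experiments and higher in acceptors in 4 of 4, although only by 0.01 on the log2 scale in experiment 2. Both share the untreated units, and the difference was not tested as such.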

How the results depend on the processing

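For aSyn-treated against untreated cells, 0 members were called without the replicate block, 3 with it, 1 with times summed per experiment and the block, and 1 to 2 with the block leaving out 1 experiment. For acceptors against untreated cells these counts were 0, 3, 0 and 1 to 3, and leaving out 1 experiment without the block gave 0 to 1. For donors against acceptors they were 3, 5, 1 and 5 to 7 (6 without experiment 1), with 1 to 4 without the block leaving out 1 experiment, and 0 with times summed and no block. Over the single times they were 0 without and 9 with the block, 0 to 1 leaving out 1 experiment, and 1 to 16 with both. Under the other scaling, no filter, untreated libraries not summed, Rn45s left out, only the groups compared, and DESeq2, the member counts stayed within 1.5 times of the main ones in each comparison. In donors against acceptors, Csf1r and Gpr34 were uncalled without the block (0.06 and 0.00) and turned to called values of -0.25 and -1.41 with the block and without experiment 1, and the causes were not tested. Of 736 member values under alternatives, 52 changed sign while uncalled. The block changed no other member call than those given above. With means over the 5 times after 0 min, the member counts were 0 and 3 (acceptors) and 3 and 5 (donors against acceptors) without and with the block. These means, the blocked leave-outs and the summed times were added after the data were seen. Over all genes, aSyn-treated against untreated called 329, 37 with only the groups compared, 618 with untreated libraries not summed, 603 by DESeq2, 2524 with the block and 73 without experiment 3. Acceptors against untreated called 107, 485 not summed, 191 by DESeq2, 1438 with the block and 0 without experiment 1. Donors against acceptors called 3372, 5839 with the block and 14 with times summed. Low counts limit Tmem119, P2ry12, P2ry13, Sall1 and Gpr34. P2ry12 had 16 to 98 counts in acceptors at 60 min, and P2ry13 had at most 34 in any acceptor library of experiment 4.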

Other observations

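Of the marker lists not used beside a result, border or blood macrophage and monocyte genes, led by Ms4a7 and Clec12a, were present at summed levels of 1026 to 1930 CPM over all units. Of the 8 tested, 0 passed in aSyn-treated against untreated cells without the block (2.5% of all genes) and 1 was higher with it (19.2%). In donors against acceptors 2 were higher and 0 lower without the block (25.6% of all genes), and 2 and 2 with it (44.3%). Neuronal markers, led by Dcx and Rbfox3, summed to 1.79 to 9.77 CPM in untreated cells and to at most 7.3 CPM elsewhere. Endothelial, mural and fibroblast markers, led by Flt1 and Dcn, summed to 31.8 to 110 CPM. Of these, 1 of 7 was higher in aSyn-treated cells without the block (2.5% of all genes). Of 5 neutrophil markers only S100a8 was listed, with at most 8.46 CPM, and of 5 lymphocyte markers only Cd79a, with at most 0.428 CPM.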
